A study of Mus musculus with 18 samples.

Results

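Mouse primary neural stem cells grown in culture were set beside embryonic mouse brain, to describe which transcripts culture kept, lost and induced. The comparison used 4 of the 18 libraries of the series: the 2 scramble libraries of the neural stem cells and the single brain libraries of embryonic days 13 and 14 (E13 and E14). Its members were the 13106 genes, of 32941 in each table, whose mean was 1 RPKM or more over these 4 libraries. RPKM counts reads per kilobase of exon and is scaled to the reads of the library. All 4 were wild type. The culture libraries, NSC-Scramble 1 and 2, carried a scramble short hairpin RNA, the control of a Pex7 knockdown pair (NSC-Pex7sh) from the same cells. The brain libraries carried no construct. Brain is the source named for the stage libraries, while the design text speaks of cortex. The age of the embryos that gave the cells, the passage, the medium and the number of animals behind a library are not given in the sources used here.

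Radial glia are the stem cells of the embryonic forebrain. In tissue they pass through intermediate progenitors on the way to projection neurons, and they sit among newborn neurons, vessels, blood and microglia. In culture, neural stem cells are commonly kept dividing with the growth factors EGF and FGF2, and prolonged growth in EGF is known to shift such cells towards the glial and oligodendrocyte lineages.

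A gene was called higher in culture when both scramble libraries stood at least 2-fold above both brain libraries on the log2(RPKM + 1) scale, and lower when both stood at least 2-fold below. It was called kept when the pair means lay within 1.5-fold. All differences below are scramble mean minus brain mean on that scale, on which low genes change by less than their true fold. No test was run, because the pairs came from tables normalised separately, E13 and E14 are different stages, and an exact permutation of 2 libraries against 2 cannot go below a two-sided p of 0.333. Culture, table and the difference in libraries cannot be told apart. As scale for these differences, the scramble libraries differed from each other with an SD of 0.234 and E13 from E14 with an SD of 0.175 over 4595 separable genes (defined below) at 5 RPKM or more in all 4 libraries. The pair means differed with an SD of 0.694 over the same genes.

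Of the 13106 genes, 1285 were higher in culture (9.80%), 1558 were lower (11.9%), and 6385 were kept (48.7%). Of them, 11335 genes reached 1 RPKM in both pair means, 761 in the culture mean only and 1010 in the brain mean only. Among the 11335 genes, 903 were higher and 783 lower. The lower calls followed the structure of the genes. Where no exon base was shared with another gene the median difference was 0.17 (7937 genes). It was -1.01 where 25% to 50% of the exon length overlapped another gene (556 genes), and -3.80 where over 99% did (244 genes, 98.8% of them lower). Against the Ctrl1 pair, which is labelled brain, has no stage given and lies in another table than the stages, the same 3 medians were 0.27, 0.23 and 0.00. Snurf, which lies wholly within another gene, was listed at 0 in both scramble libraries and in both Ctrl1 libraries, and stood at 332 and 318 RPKM in E13 and E14. The Ctrl1 libraries also stand apart from the label check below, with Sox2 at 1.17 and 1.13 RPKM and the microglia genes C1qa at 207 and 197 and C1qb at 135 and 111 RPKM. They are given beside results only as a second reading of brain. Among genes named below, Ccnb2, Slc17a7, Ednrb, Hbb-y, Rspo1 and Fdps change direction when Ctrl1 is taken as brain, and others are marked where they are described.

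**Figure D1:**
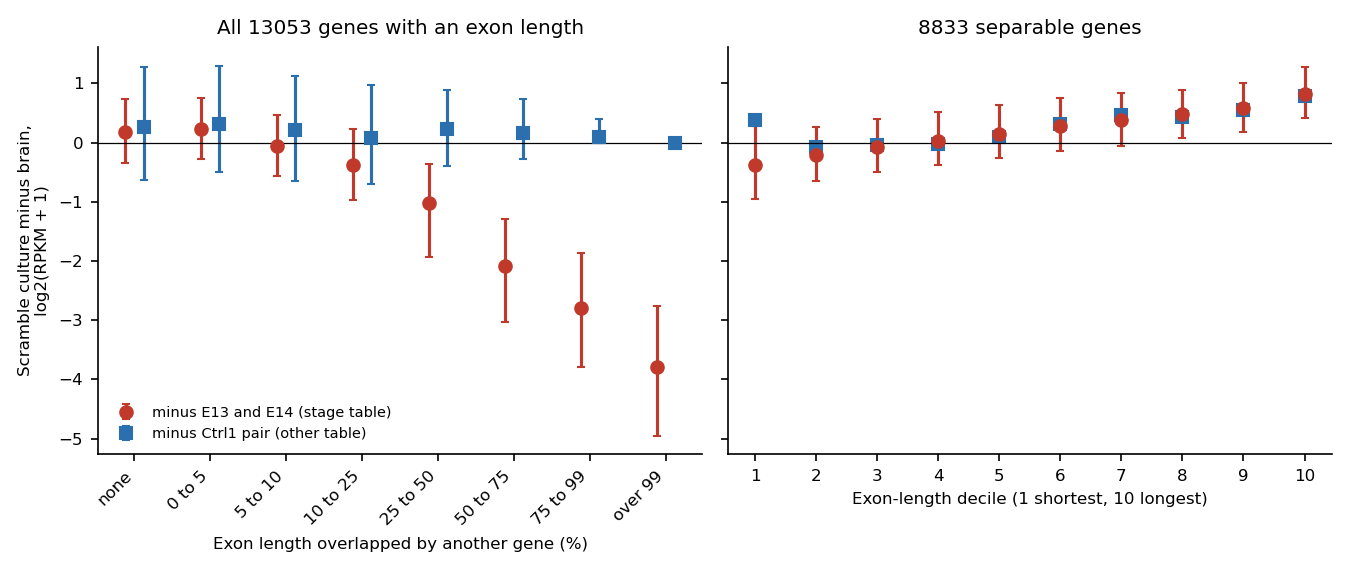
Median difference between the scramble pair and brain, on the log2(RPKM + 1) scale, by the share of exon length that overlaps another gene (left, 13053 genes) and by decile of exon length (right, 8833 separable genes). Circles are the difference from E13 and E14, squares that from the Ctrl1 pair, and bars run from the first to the last quartile (left panel both, right panel circles only); in the left panel the circles fall from 0.17 without overlap to -3.80 above 99%, while the squares stay between 0.00 and 0.31.

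List counts and medians below therefore rest on separable genes, unless other genes are stated. Some genes named below are not separable, and not all of them are marked. Separable are the 8833 genes with at most 5% of exon length overlapping another gene and at most 10% of their 31-base words shared with another gene's transcripts. This rule was added after the data had been seen. Of these, 1119 were higher in culture (12.7%), 347 were lower (3.93%) and 4652 were kept (52.7%), with a median difference of 0.24. These shares are the scale for the list counts below. The minimum of 1 RPKM uses the same 4 libraries, so a gene can pass it through the pair where it is high. Of the 7985 separable genes that reached it in both pair means, 794 were higher and 236 lower. The list counts below also hold genes that passed through 1 pair. Among the 4273 genes that are not separable, 166 were higher (3.88%) and 1211 lower (28.3%). Of the separable genes, 460 of the higher ones also stood at least 2-fold above all 6 stages from E11 to E18, and 116 of the lower ones at least 2-fold below all of them. Exon length still moved with the difference: its median rose from -0.38 in the shortest decile to 0.82 in the longest, where 30.3% of genes were higher. Against Ctrl1 the median was 0.38 in the shortest decile, then rose from -0.069 in the second to 0.79 in the longest. What this trend contributes to any gene was not tested.

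Across the 8833 separable genes the mean of the scramble pair followed the stages in the order E16 (Pearson r 0.839, Spearman rho 0.838), E13 (0.823, 0.824), E18 (0.821, 0.810), E12 (0.815, 0.815), E14 (0.800, 0.799) and E11 (0.735, 0.728). These are correlations across genes, which are not independent replicates. The 2 scramble libraries had r 0.977 and E13 with E14 had r 0.990. The culture was thus less like any stage than these libraries were like their partner, and it was not nearest to E13 or E14.

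**Figure D2:**
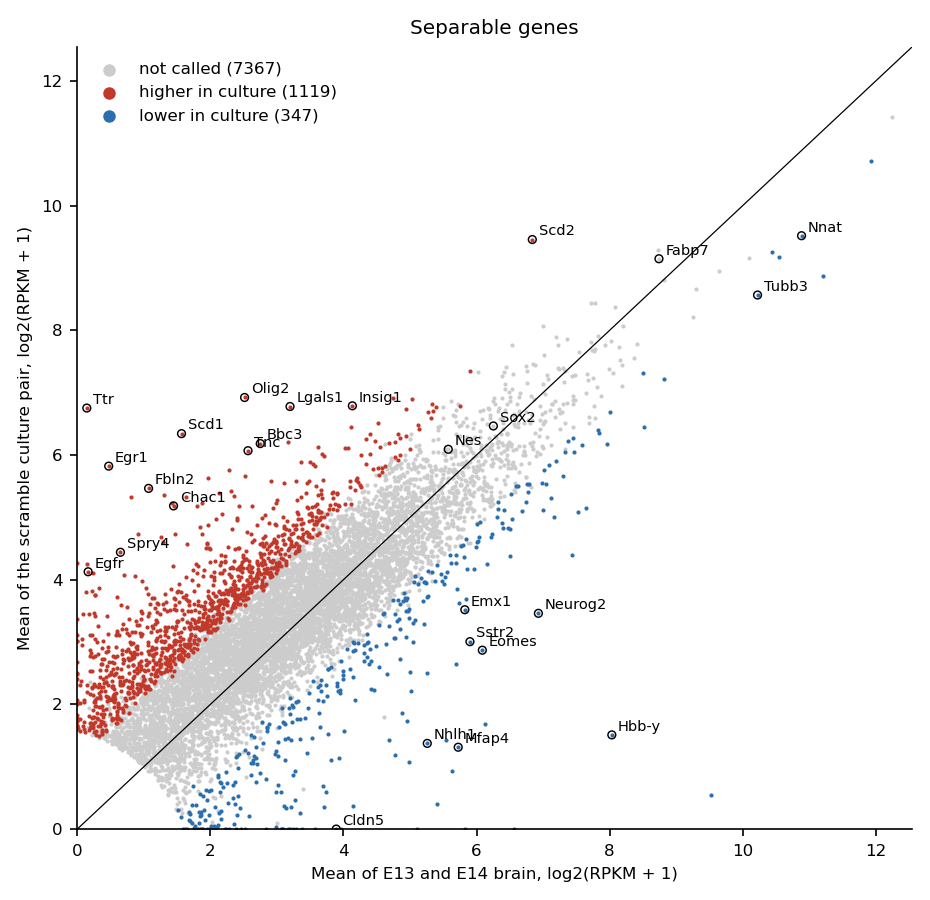
Mean of the scramble pair against the mean of E13 and E14 for 8833 separable genes, both as log2(RPKM + 1), with the line of equality. Red points are the 1119 genes higher in culture, blue points the 347 lower and grey points the rest; Neurog2, Eomes and Emx1 lie below the line, Egfr, Egr1 and Scd1 far above it, and Sox2 and Nes near it.

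The neural stem cell label was checked first. Sox2, a transcription factor of neural stem cells (ENSMUSG00000074637; mm10 chromosome 3, 34650405 to 34652461, plus strand), stood at 103 and 71.5 RPKM in scramble 1 and 2 and at 75.8 and 74.6 RPKM in E13 and E14. The ranges overlapped, and Sox2 was kept (difference 0.19). Nes, the intermediate filament nestin, stood at 81.8 and 52.6 RPKM in culture against 39.7 and 53.6 in brain. Vim (258 and 173 against 138 and 160) and Fabp7, the fatty acid binding protein of radial glia (654 and 478 against 434 and 420), were also kept. Over all separable genes 52.7% were kept, 12.7% higher and 3.93% lower. Of 14 separable stem cell and radial glia markers 5 were kept, 3 were higher and 3 lower. The higher ones were Tnc, the matrix protein tenascin C (80.4 and 51.8 RPKM against 5.64 and 4.20), the receptor phosphatase gene Ptprz1 (66.6 and 49.7 against 11.8 and 8.85) and Slc1a3, the glial glutamate transporter (42.0 and 33.5 against 6.92 and 7.15). The lower ones were the RNA-binding stem cell factor Msi1 (24.3 and 23.9 against 53.8 and 58.3), Id4 (25.5 and 29.1 against 79.3 and 87.5) and Pax6. Against Ctrl1 the differences of Msi1 (1.61) and Id4 (0.95) turned. The Notch effector Hes1 stood at 12.0 and 7.11 RPKM against 16.3 and 20.8 and was not called, and Hes5 cannot be read, since 31.8% of its exon length overlaps another gene.

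Neuronal transcripts were abundant in the same culture libraries. Mapt, the microtubule protein tau, stood at 133 and 187 RPKM in culture against 69.0 and 59.0 in brain, Gap43 of growing axons at 281 and 412 against 230 and 208, and Stmn2 at 58.0 and 80.9 against 97.3 and 84.7. Of 13 separable pan-neuronal markers 3 were kept, 2 were higher (Map2 at 72.1 and 80.4 against 32.5 and 23.3 RPKM, and Syt1) and 1 was lower. The lower one was Tubb3, neuronal beta tubulin, at 324 and 432 RPKM against 1185 and 1203. Map2 stood at 74.8 and 81.5 RPKM in Ctrl1, level with culture. Tubb3 stood at 375 and 337 RPKM in the Ctrl1 libraries, so its level in culture was near that of Ctrl1 and below the stages alone. Whether the neuronal transcripts came from a subset of cells or from all of them cannot be told apart in bulk RNA.

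Transcripts of intermediate progenitors were much lower in culture. These cells arise from radial glia and divide to give projection neurons. Neurog2, the proneural factor of the cortex (ENSMUSG00000027967; mm10 chromosome 3, 127633135 to 127635631, plus strand), stood at 12.0 and 8.02 RPKM in culture and at 119 and 123 RPKM in brain, a difference of -3.49. Eomes, which defines intermediate progenitors, stood at 7.45 and 5.16 RPKM against 59.4 and 74.5 (-3.23). Neurog1 stood at 0.103 and 0.291 RPKM against 8.41 and 9.87 (-3.08). In each of these genes both culture libraries lay far below both brain libraries. Of 10 separable markers of the list 6 were lower and 0 higher, the others being Sstr2, Mfng and Gadd45g, and the list median was -2.45. Across stages the mean of the list rose from 4.58 at E11 to 5.27 at E14 and was 2.71 at E18, against 3.21 and 3.08 in culture. Nhlh1, a transcription factor of newborn neurons, followed the same pattern, with 1.46 and 1.72 RPKM in culture against 33.9 and 40.7 in brain (-3.88). Eomes stood at only 8.09 RPKM in the Ctrl1 mean, close to culture, while Neurog2 stood at 61.1 RPKM there.

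Transcription factors that mark the dorsal telencephalon were also lower in culture. Emx1, which marks the cortical primordium, stood at 9.18 and 11.7 RPKM against 44.5 and 66.8 (-2.29), and Pax6 at 3.48 and 2.88 against 10.6 and 11.9 (-1.55). Lhx2, a selector gene of cortex, stood at 36.2 and 37.7 RPKM against 92.2 and 120 (-1.49), and Dmrt3 at 0.903 and 1.43 against 6.43 and 9.04 (-2.01). Of 8 separable members 5 were lower, the fifth being Lhx9, and 0 were higher (median -1.40). Against the Ctrl1 pair the median of the same members was 0.01, and Dmrt3 and Lhx9 did not stand below it. Fezf2, a factor of deep-layer neurons, stood at 13.5 and 20.4 RPKM against 54.5 and 68.8 (-1.82). Of 12 separable ventral forebrain genes 6 were kept, near the share of all separable genes, 0 were higher and 1 was lower (Dlx2 at 11.6 and 10.9 RPKM against 31 and 24.7). The list median was 0.00 against E13 and E14 and 2.12 against Ctrl1, where Dlx2 also turned (0.75). Among the kept ones were Lhx6 (13.0 and 16.8 against 18.2 and 12.9) and Gad2 (11.4 and 14.1 against 15.5 and 9.28). All 20 Hox genes of the hindbrain and spinal cord list had a mean below 1 RPKM in the 4 libraries.

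Blood, vessel and microglia transcripts were mostly near or at 0 in culture and below E13 and E14. Cldn5, the tight junction gene of brain endothelium, was listed at 0 in both scramble libraries and stood at 15.5 and 12.2 RPKM in brain, from 1169 and 905 reads. The endothelial cadherin Cdh5 stood at 0.0276 and 0.0518 RPKM against 2.72 and 3.62, and Pecam1 at 0.168 and 0.166 against 2.90 and 3.03. The sum of 11 endothelial markers was 12.2 and 11.5 RPKM in culture against 45.4 and 44.1 in brain, and the transporter genes Slco1c1 and Mfsd2a made up most of what remained. The sum of 13 microglia and macrophage markers was 6.99 and 2.69 RPKM against 27.9 and 27.2, and that of 11 erythroid genes 3.26 and 6.85 against 1218 and 1226. These sums include genes that are not separable. Over the separable members that passed the minimum, the sums were 11.8 and 10.8 against 41.3 and 40.6 for 6 endothelial genes, 5.26 and 2.24 against 18.3 and 16.6 for 6 microglia genes, and 1.44 and 3.02 against 288 and 271 for 3 erythroid genes. Hbb-y, an embryonic globin, fell from 273 and 249 RPKM in brain to 1.38 and 2.32. The mean of the 3 separable erythroid genes fell across stages, from 9.92 at E11 to 0.0773 at E18 on the log2 scale. The size of their difference thus depends on the stage compared. The sum of all 11 erythroid genes was still 403 RPKM at E18. The pericyte gene Rgs5 stood at 0.0767 and 0.240 RPKM against 5.65 and 4.29, while the collagen gene Col1a1 was at 1.89 and 1.42 against 0.420 and 1.2 and Acta2, smooth muscle actin, was higher at 4.02 and 3.20 against 0.0684 and 0.139. The median of the 6 separable endothelial genes was -1.80 against E13 and E14 and -0.051 against Ctrl1. Their lower level was thus seen against the stages and not against Ctrl1. For the 6 separable microglia genes the medians were -1.22 and -4.69, and for the 3 erythroid genes -3.77 and 0.35. Fewer cells of a type and less RNA per cell cannot be told apart in these libraries.

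**Figure D3:**
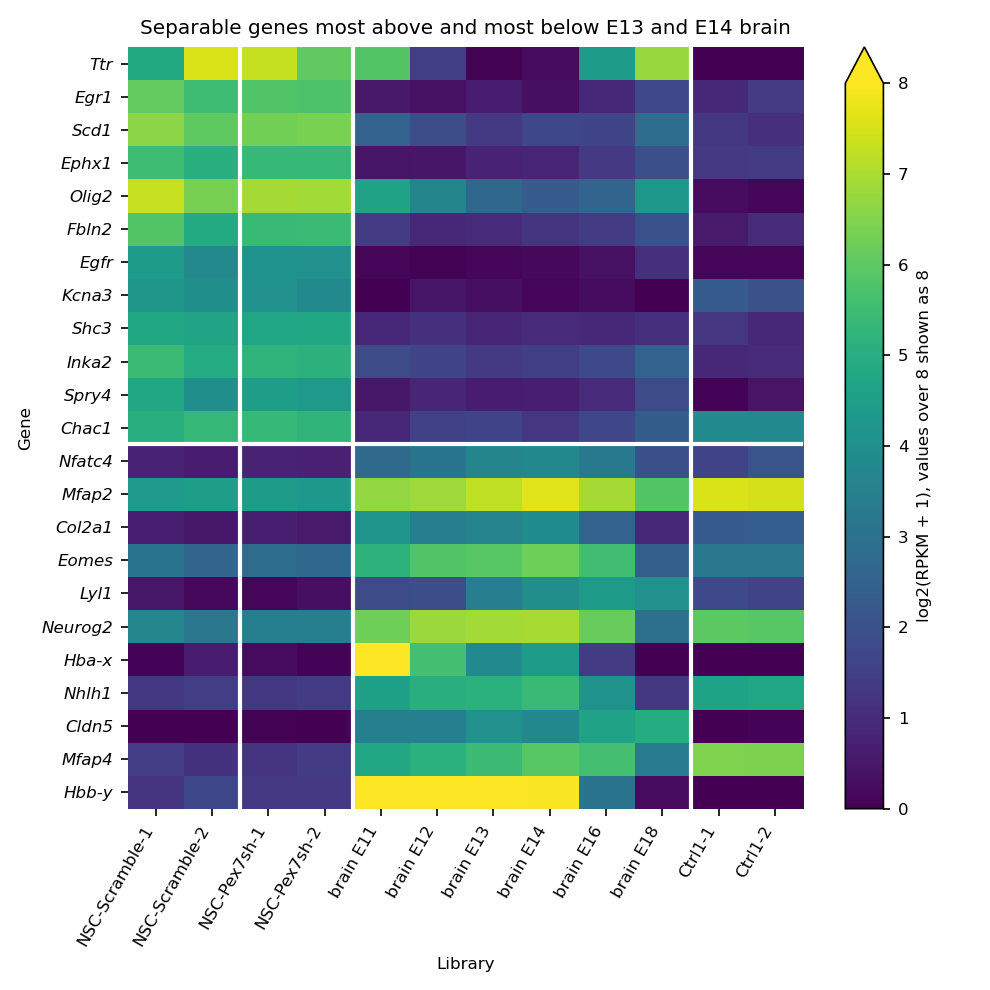
Level of the 12 separable coding genes most above and 11 of the 12 most below E13 and E14 brain, as log2(RPKM + 1), in the 4 culture libraries, the 6 stages and the Ctrl1 pair (columns). The upper genes are bright in all 4 culture columns and dark in E13 and E14; the lower genes are darker in all 4 culture columns than in E13 and E14, and Ttr is bright in scramble 2 (185 RPKM) and less so in scramble 1 (28.3 RPKM).

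Egfr and the feedback genes of growth factor signalling were higher in culture. Egfr, the receptor of EGF (ENSMUSG00000020122; mm10 chromosome 11, 16752203 to 16918158, plus strand), stood at 20.4 and 12.6 RPKM in culture, from 3971 and 2618 reads. The brain levels of Egfr were 0.106 and 0.133 RPKM (64 and 79 reads), a difference of 3.93. Egfr reached 1.15 RPKM at E18, still below both culture libraries. Erbb4, another receptor of the family, stood at 5.58 and 7.32 RPKM against 1.86 and 1.28, whereas Fgfr1 (24.6 and 19.6 against 13.5 and 14.9) and Fgfr2 (3.41 and 3.42 against 5.98 and 5.72) were not called. Genes switched on by these receptors as feedback moved together: 8 of 9 separable members, and 13 of all 15 that passed the minimum of 1 RPKM, were higher (separable median 1.62). Spry4, an inhibitor of receptor tyrosine kinase signalling, stood at 26.6 and 14.9 RPKM against 0.525 and 0.609 (3.74). Its relative Spry2 stood at 47.0 and 36.8 against 4.02 and 3.93 (3.10). Etv4, an ETS factor downstream of FGF, stood at 27.8 and 18.7 against 1.18 and 1.73 (3.29), and the ERK phosphatase gene Dusp6 at 40.6 and 29.9 against 4.64 and 4.16 (2.73). The member not called was Spred3, at 10.2 and 10.7 against 5.49 and 5.43. The mean of the 9 members was 4.55 and 4.33 in culture and between 1.97 and 2.84 in every stage. Shc3, an adaptor of these receptors, belonged to the largest differences at 26.9 and 24.2 RPKM against 0.823 and 0.930 (3.82).

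Immediate early genes, which answer growth factors, activity and cell handling within minutes, were higher as well. Egr1 stood at 66.0 and 45.1 RPKM in culture against 0.527 and 0.247 in brain (5.33). Fos stood at 12.7 and 14.6 against 0.255 and 0.251 (3.54), and Nr4a1 at 12.2 and 16.1 against 2.38 and 2.65 (2.10). Egr2 was listed at 0 in both brain libraries and stood at 3.01 and 3.22 RPKM in culture. Of 17 separable members 10 were higher (median 1.74), and 1 was lower, the matrix gene Ccn1 (3.65 and 4.10 against 10.7 and 11.8). Ier2 (21.9 and 17.2 against 19.8 and 28.0) and Zfp36 (1.12 and 0.706 against 1.41 and 1.93) were kept, so the list did not move as a block. In Ctrl1, Fos stood at 11.0 RPKM, near culture, and Egr1 at 1.25 RPKM, near the stages.

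Some markers of glial commitment were higher in culture. Olig2, the transcription factor of the oligodendrocyte lineage, stood at 159 and 81.2 RPKM against 5.53 and 3.90 (4.34). Its partner Olig1 stood at 258 and 130 against 2.72 and 1.82 (5.83), with 7.26% of its exon length overlapping another gene. Later markers of that lineage were low in culture. Pdgfra stood at 3.85 and 1.43 RPKM against 0.313 and 0.276 and Sox10 at 3.26 and 0.946 against 0.369 and 1.22, neither of them called. Mog, a myelin gene, was higher at 8.35 and 8.66 against 2.92 and 2.46 (1.37). Of 7 separable oligodendrocyte lineage genes 2 were higher and 0 lower, with a median of 0.72, or 0.47 with the median of the exon-length decile taken off. Among astrocyte genes Sparcl1 (65.0 and 62.9 against 12.1 and 11.4), Mlc1 (35.1 and 25.8 against 8.77 and 9.18) and the lipid carrier gene Apoe (41.4 and 48.2 against 19.2 and 16.8) were higher. Apoe stood at 205 and 204 RPKM in Ctrl1, above culture. Of 7 separable astrocyte genes 3 were higher and 0 lower, against 12.7% and 3.93% of all separable genes. Their median was 1.18, or 0.36 with the median of the exon-length decile taken off. Their mean was 4.48 in both culture libraries and 4.64 at E18. Gfap stood at 1.29 and 1.52 against 0.0267 and 0.122, with a mean below 1 RPKM, and Aldoc (50.7 and 37.1 against 59.3 and 71.2) was kept. Of the 13 separable genes that rise late in progenitors 5 were higher, namely Egfr, Tnc, Cd44, the endothelin receptor gene Ednrb and the brevican gene Bcan. The gliogenic factor Nfia went the other way without being called, at 10.8 and 8.61 RPKM against 22.5 and 24.6. Of 8 early progenitor genes 0 were higher and 1 was lower, Crabp2 (1.45 and 1.24 against 8.38 and 11.4). The mean of the early list was 2.84 and 2.76 in culture, between 2.61 at E16 and 3.42 at E13, and that of the late list was 4.83 and 4.51, above the 3.71 at E16, its highest stage. The median difference of the late list was 0.90 against E13 and E14 but 0.09 against Ctrl1.

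Most genes of sterol synthesis, and several of fatty acid synthesis, were higher in culture. Insig1, a sterol-regulated brake of the pathway, stood at 119 and 99.8 RPKM against 15.6 and 17.5 (2.65). Lss stood at 32.1 and 29.3 against 5.82 and 5.86, and Cyp51 at 91.1 and 90.1 against 21.8 and 22.2. In each of these genes the culture libraries lay close together and far above both brain libraries. Of 17 separable members 14 were higher and 2 were kept (Ebp and Pmvk), with a median of 1.52. Of the 23 that passed the minimum, 16 were higher, and the 1 lower was Fdps, whose exons overlap another gene over 26.7% of their length. The mean of the separable members was 5.29 and 5.19 in culture and between 3.60 and 4.0 in the 6 stages. In fatty acid synthesis 5 of 11 separable members were higher. They included the desaturases Scd1 (96.4 and 63.9 RPKM against 1.57 and 2.36) and Scd2 (798 and 604 against 121 and 106), and Fasn, the fatty acid synthase (121 and 91.4 against 28.0 and 31.3).

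The integrated stress response, in which ATF4 drives amino acid supply and stress genes, was higher in many of its targets and not in Atf4 itself. Atf4 stood at 102 and 105 RPKM in culture against 91.9 and 106 in brain. Asns, asparagine synthetase (ENSMUSG00000029752), stood at 69.3 and 76.8 against 8.70 and 7.26 (3.05). Chac1, which degrades glutathione, stood at 31.2 and 39.5 against 2.03 and 1.42 (3.74), Sesn2 at 37.8 and 40.4 against 2.19 and 2.04 (3.69), and the pseudokinase gene Trib3 at 7.16 and 7.38 against 0.0530 and 0.0538 (2.97). The culture libraries were close to each other and far above brain in all 4 genes. Of 16 separable members 9 were higher and 4 kept (median 1.42). The 1 lower member was Slc7a11, the cystine transporter, at 2.33 and 2.26 RPKM against 5.99 and 5.77 (-1.06). Serine synthesis genes of the list were kept, with Psat1 at 64.5 and 49.6 against 50.4 and 56.9. Asns stood at 86.5 and 91.7 RPKM in the Ctrl1 libraries, above culture, as did Trib3 (9.57 and 9.19), and Slc7a11 at 0.0948 and 0.219, below it, so these differences turn with the choice of brain libraries.

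Promoters are shown for 3 of the higher members and for the 1 lower member, all of which hold a match. ATF4 and its partners bind an element whose core was searched here as TGATGNAA on both strands, in the 250 bases before each RefSeq start (GRCm38.p6). It was present for 5 of 19 members with a RefSeq promoter (26.3%), against 3.45% of all 32851 promoters. The 5 were Asns, Chac1, Vldlr, Pck2 and Slc7a11, of which the first 3 were higher in culture. The list was made of genes of this response, so its share describes the list and gives no result about culture. Here and below list members are counted by gene, but the background by promoter (32851 promoters of 27025 genes), so the shares differ in unit. The ATF4 element was also found before 1 of 15 immediate early genes (6.67%) and 1 of 16 sterol genes (6.25%). It was found before 0 of 9 feedback targets and 0 of 13 p53 targets. Below, each window reads 5′ to 3′ on the gene's strand and capitals mark the match, on either strand. The windows lie on chromosome 6 (minus strand, chr6:7693210-7693272), chromosome 2 (plus, chr2:119351009-119351096), chromosome 19 (plus, chr19:27216780-27216867) and chromosome 3 (minus, chr3:50443614-50443719).
Asns: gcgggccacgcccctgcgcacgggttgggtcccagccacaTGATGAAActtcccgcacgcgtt
Chac1: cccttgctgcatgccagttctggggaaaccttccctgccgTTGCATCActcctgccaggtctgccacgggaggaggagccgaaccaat
Vldlr: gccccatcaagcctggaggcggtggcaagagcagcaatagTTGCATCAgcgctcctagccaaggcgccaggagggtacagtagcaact
Slc7a11: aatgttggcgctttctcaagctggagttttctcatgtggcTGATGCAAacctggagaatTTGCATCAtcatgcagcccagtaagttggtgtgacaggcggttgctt
The matches begin 23 bases before the start in Asns, 193 in Chac1, 200 in Vldlr and 66 and 47 in Slc7a11. The gene with 2 matches was thus the lower one. A match describes letters and no binding. For the sterol genes the sterol regulatory element, searched as TCACNCCAC on both strands, was found before 1 of 16 members, Hmgcs1 (252 and 255 RPKM against 59.9 and 52.2), and in 1.05% of all promoters. It lies at chr13:119690174-119690262 (plus strand), beginning 137 bases before the start, and no window printed here holds both elements. The sterol share was 6.25%. The same element was found before 1 of 13 p53 targets (7.69%), Sesn1, which was not called, so it was not particular to the sterol list.
Hmgcs1: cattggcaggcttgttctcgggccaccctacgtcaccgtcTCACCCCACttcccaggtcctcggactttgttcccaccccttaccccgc

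**Figure D4:**
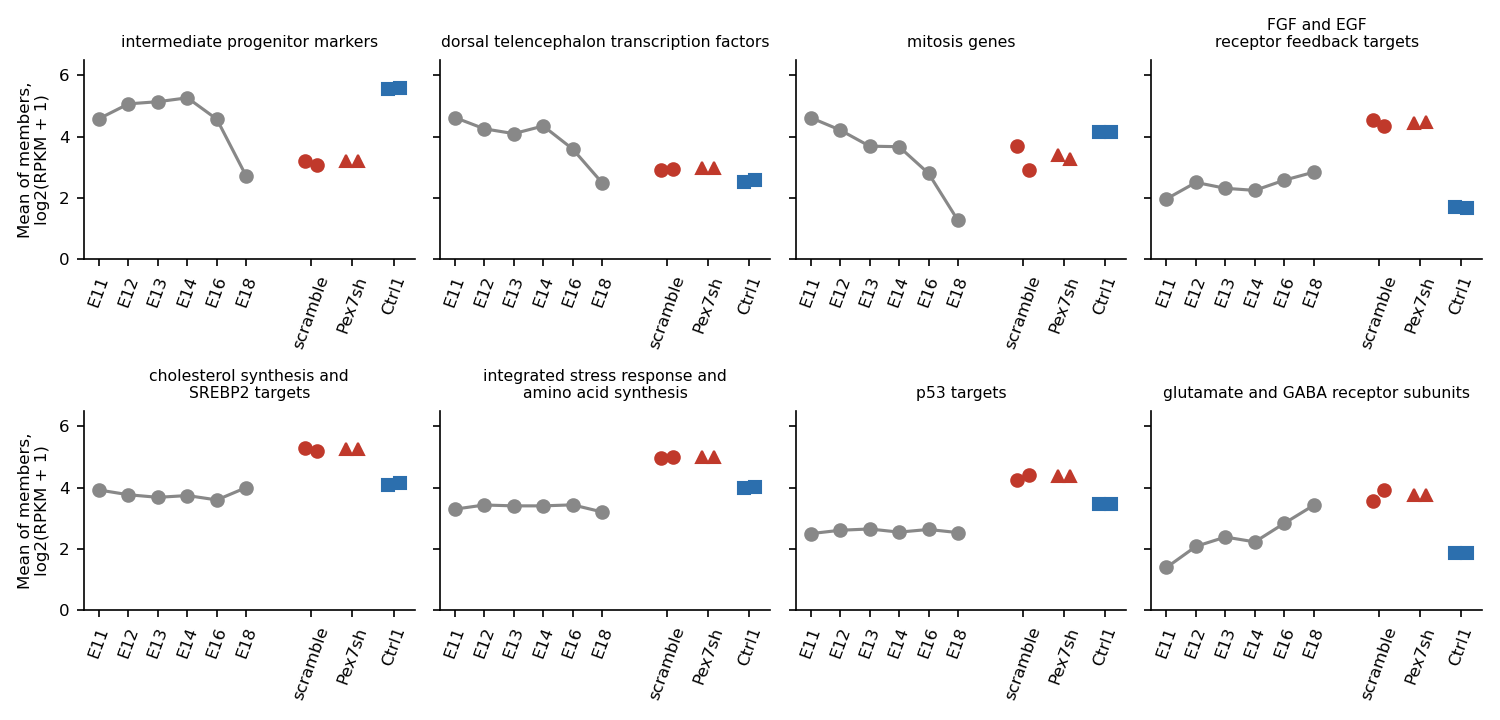
Mean of the separable members of 8 gene lists in each library, as log2(RPKM + 1): grey circles are the 6 stages, red circles the scramble pair, red triangles the NSC-Pex7sh pair and blue squares the Ctrl1 pair. Feedback targets (4.55 and 4.33), sterol genes (5.29 and 5.19), stress response genes (4.98 in both) and p53 targets (4.26 and 4.40) lie above every stage in culture, while intermediate progenitor markers and mitosis genes lie within the range of the stages.

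Targets of p53, which halts the cycle or starts apoptosis after damage and stress, were mostly higher in culture. Bbc3, the proapoptotic gene Puma (ENSMUSG00000002083), stood at 66.8 and 76.5 RPKM against 5.48 and 5.97 (3.43). Phlda3 stood at 34.7 and 35.7 against 2.7 and 2.25 (3.38), Ccng1 at 48.0 and 51.7 against 5.34 and 4.09 (3.16), and Eda2r at 7.66 and 6.81 against 0.242 and 0.168 (2.77). Of 13 separable members 10 were higher and 0 lower (median 1.76). Cdkn1a, which encodes the cell cycle inhibitor p21 and is not separable, stood at 43.7 and 47.6 against 4.05 and 3.68. Mdm2, itself a target and the brake on p53, was kept at 15.6 and 16.5 against 13.1 and 13.2, and Sesn1 was kept at 10.9 and 13.0 against 15.4 and 14.2. The mean of the list was 4.26 and 4.40 in culture, 2.50 to 2.65 in the 6 stages and 3.47 and 3.45 in Ctrl1. The cycle inhibitors Cdkn2b and Cdkn2a were also higher. Cdkn2b stood at 6.31 and 5.17 RPKM against 0.0945 and 0.261 (2.52). Cdkn2a was listed at 0 in both brain libraries and rested on 55 and 32 reads in culture (2.73 and 1.49 RPKM). Of 11 separable G1 cyclins, kinases and inhibitors 2 were higher, 0 were lower and 8 were kept (median 0.063). Over all 18 members of that list, separable or not, 4 were higher, 2 were lower and 11 were kept (median 0.066).

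Separable mitosis and replication genes were called about as rarely lower as all separable genes, and none was called higher. Of 22 separable mitosis genes 12 were kept, 0 were higher and 1 was lower (Ccnb2 at 15.3 and 7.79 RPKM against 36.7 and 34.2). The median was -0.37, or -0.55 with the median of the exon-length decile taken off. Of 18 replication genes 11 were kept, 0 were higher and 1 lower (Gins1 at 8.12 and 4.74 against 19.5 and 20.8), with a median of -0.42, or -0.80 with length taken off. Both medians lay below the 0.24 of all separable genes, and the kept shares were near the 52.7% of all separable genes. Mki67, the proliferation antigen, stood at 37.5 and 18.7 RPKM against 17.3 and 16.0. Scramble 1 stood above scramble 2 in these lists, by a median of 0.77 for mitosis and 0.64 for replication genes. It stood below scramble 2 by 0.41 in pan-neuronal and 0.38 in glutamate and GABA receptor genes, so the libraries of 1 label differed in their share of dividing and neuronal transcripts. Scramble 1 alone gave a mitosis mean of 3.69, equal to that of E13, and scramble 2 alone gave 2.91. Over all mitosis genes, separable or not, the median difference was -0.78 without scramble 1 and -0.11 without scramble 2. Over all DNA replication genes it was -0.84 and -0.24.

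Some adhesion and matrix genes were higher in culture, and about as many were kept. Of 26 separable members 10 were higher, 11 were kept and 1 was lower, the caveolin gene Cav1 at 1.42 and 1.41 RPKM against 5.19 and 4.31. The list median was 0.39, or 0.14 with the median of the exon-length decile taken off. Cav1 stood at 0.781 and 0.649 RPKM in Ctrl1, below culture. Lgals1, a secreted lectin, stood at 127 and 90.0 RPKM against 8.36 and 7.98 (3.56), Cd44, the hyaluronan receptor, at 6.77 and 5.44 against 0.144 and 0.166 (2.61), and the integrin gene Itgb5 at 24.7 and 20.8 against 2.93 and 2.82 (2.61). Fbln2, a matrix glycoprotein, belonged to the largest differences at 57.5 and 28.8 against 0.925 and 1.28 (4.32). Outside that list, the matrix genes among the largest lower differences were Mfap4 at 1.72 and 1.25 against 44.1 and 59.6 (-4.40), Mfap2 at 19 and 21.1 against 151 and 192 (-3.03), and Col2a1 at 0.591 and 0.430 against 10.9 and 13.9 (-3.14). The vessel basement membrane genes Col4a1 (4.47 and 3.85 against 9.79 and 10.1) and Col4a2 were not called.

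Part of the synaptic genes were higher in culture. Of 19 separable glutamate and GABA receptor subunits 10 were higher (median 1.56), among them Gabrb2 (6.44 and 8.88 RPKM against 0.221 and 0.105), Grm5 (13.8 and 13.2 against 1.19 and 0.900) and Grin2b (10.3 and 12.8 against 2.22 and 1.52). Of 21 separable synaptic and vesicle genes 7 were higher, 5 were kept and 1 was lower (median 0.98), with Camk2b at 54.7 and 56.7 against 10.9 and 10.9. The lower one was Slc17a7, a vesicular glutamate transporter, at 3.53 and 8.58 against 18.3 and 19.4, while Gad1, which makes GABA, stood at 17.8 and 27.9 against 10.6 and 7.33. Of all separable genes in the longest exon-length decile, 30.3% were higher. With the median of the exon-length decile taken off, the list medians were 0.82 and 0.51. The receptor mean also rose across stages, from 1.40 at E11 to 3.43 at E18, against 3.56 and 3.91 in culture.

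Most members of the Notch, Wnt, Hedgehog and BMP pathways were not called. Bmp7, a BMP ligand, stood at 13.5 and 9.01 RPKM against 0.990 and 1.29 (2.50), Jag1, a Notch ligand, at 8.53 and 5.72 against 1.93 and 1.74 (1.5), and Ptch1, receptor and target of Hedgehog, at 6.06 and 5.16 against 1.66 and 1.05 (1.5). Wnt5a stood at 6.11 and 4.89 against 1.49 and 1.92 (1.26), whereas the Wnt feedback gene Nkd1 stood at 5.08 and 3.98 against 14.7 and 15.1 (-1.53) and the Wnt agonist gene Rspo1 at 0.689 and 0.955 against 3.40 and 3.25 (-1.25). Of the separable members, 2 of 10 were higher and 1 lower in the Notch list, 1 of 11 and 2 in the Wnt list, 1 of 7 and 0 in the Hedgehog list, and 1 of 10 and 1 in the BMP list. The higher counts are near the 12.7% higher among all separable genes. The lower counts of the Notch, Wnt and BMP lists lie above the 3.93% of all separable genes, on 1 or 2 genes each. Of 6 separable interferon-stimulated genes 4 were higher, among them B2m, the light chain of class I antigens, at 54.8 and 58.7 against 12.1 and 9.07 (2.33), and Bst2 at 6.69 and 5.73 against 1.16 and 0.992 (1.79). In Ctrl1 both were far above culture, with B2m at 333 and 316 RPKM. Of 13 separable hypoxia-induced genes 3 were higher, 0 were lower and 8 were kept, with a median of 0.55, or 0.24 with length taken off. The kept count is near the 52.7% of all separable genes, of which 12.7% were higher. The growth factor gene Vegfa was higher at 44.2 and 37.7 RPKM against 14.9 and 11.5.

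Imprinted genes, expressed from the allele of 1 parent, were called in both directions. Of all separable genes 12.7% were higher, 3.93% lower and 52.7% kept. Of 11 separable imprinted genes 3 were higher, 1 was lower and 4 were kept, too few to set apart from those shares. Peg3 stood at 26.6 and 30.4 RPKM against 6.35 and 4.59 (2.20) and Peg10 at 53 and 42.1 against 14.5 and 9.25 (1.93). Nnat, neuronatin, stood at 654 and 810 against 2011 and 1767 (-1.37), and at 664 and 626 in Ctrl1.

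The study's knockdown target is a peroxin, one of the proteins that build peroxisomes. Of 10 separable peroxins 9 were kept (median -0.088), among them Pex7 (1.19 and 1.22 RPKM against 1.21 and 1.43) and Pex5 (22.7 and 23.2 against 23.3 and 23.3). Of 4 separable ether lipid genes 0 were called and 1 was kept, with a median of 0.85, or 0.18 with the median of the exon-length decile taken off. Over all 11 ether lipid genes, which all passed the minimum of 1 RPKM, 0 were called, 4 were kept and the median was 0.076. Agps stood at 8.57 and 8.0 RPKM against 4.56 and 4.20, Far1 at 13.4 and 15.6 against 8.36 and 6.27, and Gnpat at 24.9 and 21.9 against 30.7 and 29.3. The lipase and acyltransferase gene Plaat3 stood at 0.690 and 0.409 against 0.983 and 1.19. Nuclear genes of respiratory complex I lay lower without most of them being called, with 2 of 20 lower and 9 kept. Their median was -0.64, or -0.39 with the median of the exon-length decile taken off. Against Ctrl1 their median was 0.22.

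Some of the most abundant transcripts were kept. They were picked by mean level among coding genes, separable or not, outside the ribosomal, mitochondrial, cytoskeletal and translation genes. They were Hsp90ab1, Tmsb10, Fabp7, Basp1, Calm2, Ybx1, Selenow and Hnrnpab. Basp1, a growth cone protein gene, stood at 561 and 693 RPKM against 433 and 411, and Selenow, a selenoprotein gene, at 407 and 489 against 432 and 469. Hnrnpab overlaps another gene over 29.1% of its exons and was kept all the same. Genes that differed and belong to no list included Ephx1, microsomal epoxide hydrolase (45.1 and 33.1 against 0.722 and 0.792, 4.50), the potassium channel gene Kcna3 (17.7 and 14.8 against 0.257 and 0.10, 3.87), Inka2 (43.2 and 29.5 against 1.56 and 1.78, 3.78) and, lower in culture, Nfatc4 (0.690 and 0.553 against 11.5 and 12.4, -2.99) and the blood lineage factor Lyl1 (0.429 and 0.134 against 9.65 and 14.5, -3.34). The largest positive difference among separable coding genes, that of Ttr, the transthyretin of choroid plexus, rested on unequal libraries: 28.3 RPKM in scramble 1 and 185 in scramble 2 against 0.0317 and 0.177 in brain. Other choroid plexus genes were low and also unequal, with Folr1 at 0.126 and 2.09 RPKM and Clic6 at 0.208 and 2.07. Ttr stood at 57.6 RPKM at E11 and 107 RPKM at E18, so that it was lowest at the 2 stages used here.

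**Figure D5:**
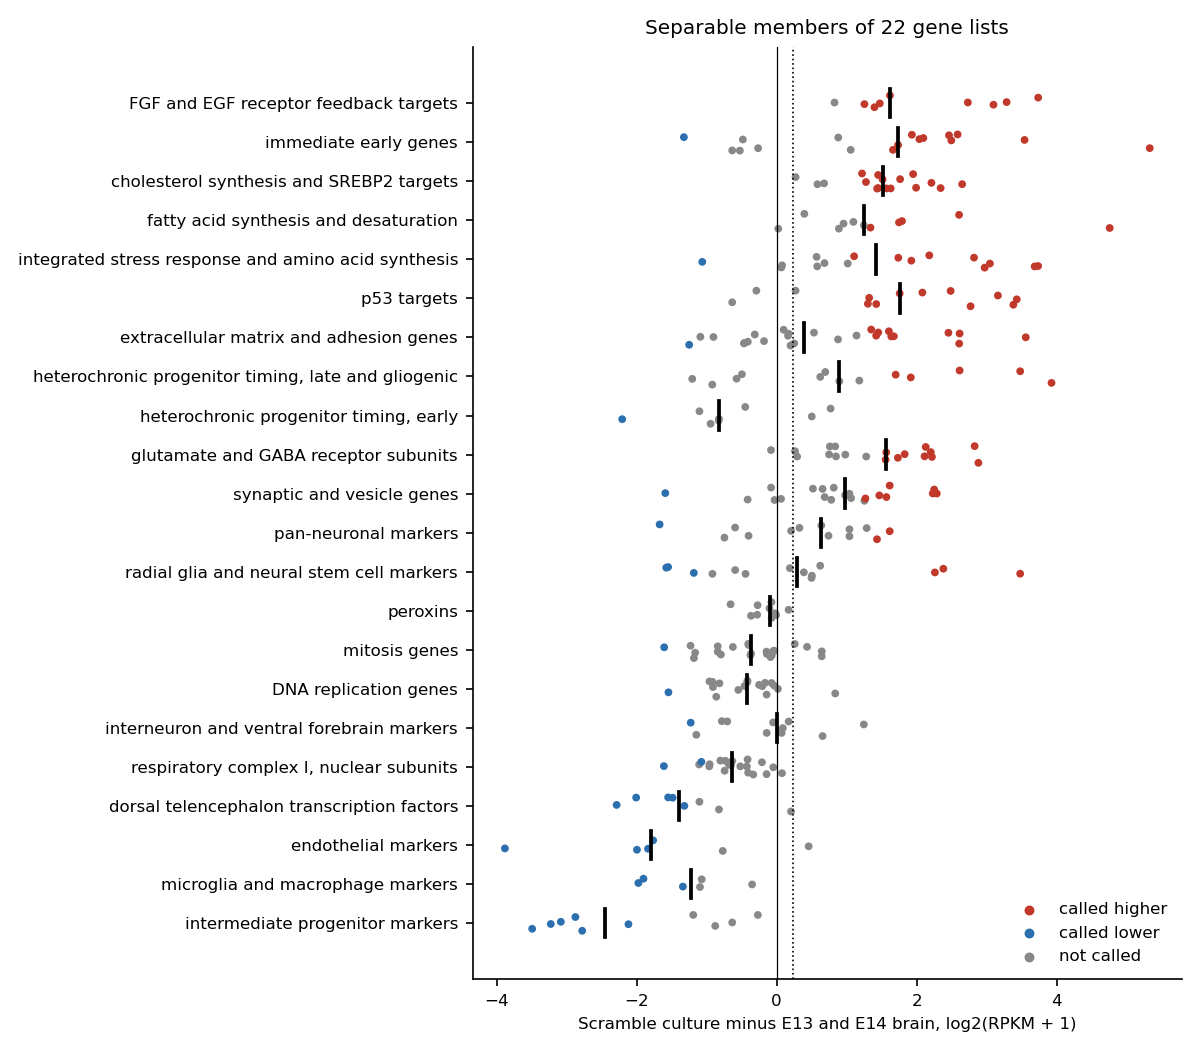
Difference between the scramble pair and E13 and E14 brain, on the log2(RPKM + 1) scale, for the separable members of 22 gene lists; each point is a gene, black bars are list medians and the dotted line is the median of all separable genes (0.24). Red points were called higher and blue points lower; feedback targets, immediate early, sterol, stress response and p53 genes lie mostly to the right, and intermediate progenitor, endothelial and dorsal telencephalon genes to the left.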

How the data were processed

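RNA was measured by sequencing in 18 mouse libraries, and 4 of them carry this comparison, with the NSC-Pex7sh pair, the other stages and Ctrl1 beside them. The deposited tables hold RPKM values, levels that the authors normalised to exon length and library depth. No header names this unit, which was inferred from the values, with 97.6% to 97.8% of them whole reads within 0.01 once the length and depth were taken out. STAR 2.7.9a, HTSeq 0.6.0 and the mm10 build are named per the submitters' processing notes. Recovered totals were 17215546 and 18364777 reads for the scramble libraries and 52452495 to 53270603 for E13 and E14. Where nothing says that the scramble libraries came from separate cultures, their spread may be technical.

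Differences were computed on log2(RPKM + 1) with Python 3.11.15, pandas 2.3.3 and numpy 2.4.6. Exon overlap came from bedtools 2.31.1 and GENCODE M21, promoters from RefSeq (GRCm38.p6). The call rule was checked on simulated data. Genes and 48 lists were chosen with earlier results of these data known. Named were the 12 largest higher and 12 largest lower coding genes with a pair mean of at least 10 RPKM, the 8 most abundant kept genes, and from each list up to 5 members of largest difference, the most abundant, those going against the list, and the defining markers. Other list members named were chosen after their values were seen. Results for some genes are not reported here.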

Additional observations from a re-analysis of the deposited data

How the results depend on the processing

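No paired analysis was possible because the stage libraries carry no replicate number shared with the culture. Over all genes, 1285 were genes higher in culture and 1558 genes lower in culture, with 6385 genes kept. With a pseudocount of 5 they were 362 higher and 893 lower, with a minimum mean of 5 RPKM 737 and 1015, with 4-fold in place of 2-fold 173 and 675, and against all 6 stages 527 and 1011. With no filter 25254 genes were kept. Against Ctrl1 3225 were higher and 3965 kept. The settings chosen after seeing the data gave 347 lower for separable genes, 285 lower and 3706 kept for separable genes with no overlap, 584 higher and 380 lower with the median of the exon-length decile taken off, and 2396 higher and 2822 kept for separable genes against Ctrl1. The share of higher genes among those called was 45.2%, and became 76.3% for separable genes, 60.6% with length taken off, 28.8% with a pseudocount of 5, 20.4% with 4-fold, 34.3% against all 6 stages and 62.0% against Ctrl1. Leaving out 1 library in turn gave 1407 to 1727 higher, 1539 to 1890 lower and 6072 to 6663 kept.

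A reversal was counted only for called genes and for list medians of at least 2-fold in the main setting. Every such reversal came from taking Ctrl1 as brain, and the cause was not tested. The list medians that turned in this way were those of erythroid genes (0.35 among separable members), dorsal telencephalon factors (0.093, and 0.011 among separable members), structured non-polyadenylated RNAs (0.59), mitochondrially encoded mRNAs (0.86, and 0.65) and interferon-stimulated genes (-2.72, and -1.64). Smaller list medians also changed sign in other settings. The radial glia median went from -0.29 to 0.29 among separable members. Among separable members with length taken off, the pan-neuronal median went from 0.19 to -0.064 and the upper-layer median from 0.32 to -0.23. Of the genes named, Map2 (-0.036), Lhx9 (0.093), Trib3 (-0.33), Dlx2 (0.75), B2m (-2.50), Nnat (0.17), Slc7a11 (1.51), Fdps (1.36), Rspo1 (0.86), Msi1 (1.61), Cav1 (0.49), Asns (-0.28), Hbb-y (1.49), Apoe (-2.17), Slc17a7 (1.69), Bst2 (-4.25), Tubb3 (0.072), Ednrb (-0.20), Ccnb2 (0.63), Id4 (0.95) and Dmrt3 (0.82) turned, with the difference from Ctrl1 in brackets. Depth limits low genes most: Cdkn2a rested on 55 and 32 reads in culture.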
